A study of Homo sapiens with 3 samples.

Results

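The collagen gene family was examined in induced melanocytes, pigment cells grown from human pluripotent stem cells. Members were all annotated genes whose symbol is COL, a number, A and a number, without antisense genes, that had at least 1 UMI (unique molecular identifier, a tag that counts 1 captured transcript once) in cells passing quality control. Of 44 such symbols, 42 qualified, out of 28021 genes with a UMI. COL20A1 and COL4A3 had none. All 42 had a UMI in D23 and in D32, and 39 had one in D44. Droplet RNA libraries were made at day 23 (D23), day 32 (D32) and day 44 (D44) of differentiation, with 1 library per day and 3796, 6023 and 5811 cells kept. D23 came from its own induction and sequencing batch, and D32 and D44 shared an induction and a batch, so day, induction and batch cannot be told apart in D23. The labels name no engineered allele and give all 3 cultures 1 regimen: embryoid bodies were kept in Wnt3a-conditioned medium with SCF, endothelin-3, bFGF, dexamethasone, cholera toxin and the phorbol ester TPA, plated on fibronectin, and passaged in that medium with 0.5% serum and no TPA. Cells were not sorted, although the labels call all of them melanocytes, and were frozen before libraries were made. The sample titles name induced pluripotent stem cells, while the source and cell line fields name the embryonic stem cell line H9, and this was not resolved.

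Cells were sorted into classes by marker genes that include no collagen. Mesenchymal cells (PDGFRA, PDGFRB, LUM, DCN, TWIST1, PRRX1, POSTN) numbered 286, 266 and 15 in D23, D32 and D44. Neural cells (ZIC1, ZIC2, SOX2, NEFM, DCX, POU3F2, CDH6) numbered 821, 98 and 2, and the 2 cells of D44 were left out of all results. Melanocytes (PMEL, MLANA, TYRP1, DCT, TYR, MITF) numbered 2328, 5537 and 5757. The remaining 361, 122 and 37 cells were unassigned, and 18.6%, 50.8% and 2.7% of them were called as doublets. Median depth per cell was 11948.5, 34549 and 35541 UMIs in mesenchymal cells, 12288 and 22408 in neural cells, and 12789, 36657 and 42965 in melanocytes. Libraries shared few barcode sequences among kept cells, with 8 between D32 and D23, 2 between D44 and D23, and 15 between D44 and D32. These markers set the classes, so their levels are no check of them. The 6 melanocyte markers summed to between 74.6 and 214.7 UMIs per 1000000 UMIs of the same cells (CPM) in mesenchymal cells and between 136.8 and 248.6 CPM in neural cells, against 3962 to 11632 CPM in melanocytes.

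Collagens are secreted triple helices. Fibrillar collagens (types I, II, III, V, XI) form the tensile fibres of connective tissue, basement membrane collagen IV forms the sheet on which epithelial cells and melanocytes sit, microfibrillar collagen VI links cells to fibres, and FACIT collagens (fibril-associated collagens with interrupted triple helices) decorate fibril surfaces. Most helices hold chains of more than 1 gene: type I has COL1A1 and COL1A2 chains, type V has COL5A1 and COL5A2 chains, type IV pairs COL4A1 with COL4A2 and COL4A5 with COL4A6, and type VI needs COL6A1, COL6A2 and 1 further chain, usually COL6A3. In skin, melanocytes rest on a type IV network, and fibroblasts make most of the fibrillar collagen.

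By their RefSeq starts, COL4A1 and COL4A2 lie head to head on chromosome 13, with 126 bases between them, and COL4A5 and COL4A6 lie head to head on chromosome X, with 379 bases between the COL4A5 start and the nearer of 2 COL4A6 starts. The stretches between them are shown because the values of these genes are given side by side below. RefSeq (GRCh38.p14) promoter windows matched 31 of the 42 members. Capitals mark CCAAT and GGGCGG, searched on both strands (ATTGG and CCGCCC on the other strand), and the 2 motifs overlap nowhere here. The first stretch, chr13:110307158-110307257 on the plus strand, runs from the base after the COL4A1 start to the base before the next COL4A2 exon in GENCODE, where the COL4A2 gene itself opens further upstream, at position 110305812. The second, chrX:108439588-108439837 on the plus strand, holds the 250 bases before the COL4A5 start. No annotated exon overlaps either.
COL4A1-COL4A2: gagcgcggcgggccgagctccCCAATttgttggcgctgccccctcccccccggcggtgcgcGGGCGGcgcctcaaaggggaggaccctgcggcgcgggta
COL4A5: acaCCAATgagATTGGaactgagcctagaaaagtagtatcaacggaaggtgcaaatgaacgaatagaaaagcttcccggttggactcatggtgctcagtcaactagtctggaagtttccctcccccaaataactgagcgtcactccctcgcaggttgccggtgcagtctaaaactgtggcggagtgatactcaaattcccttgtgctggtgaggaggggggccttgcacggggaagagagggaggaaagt
The COL4A1-COL4A2 stretch holds 1 CCAAT and 1 GGGCGG, and the COL4A5 stretch holds 2 CCAAT and no GGGCGG. Among the 35116 RefSeq promoter windows, 18.1% hold CCAAT and 31.3% hold GGGCGG in the last 100 bases before the start, and 32.0% and 42.6% in the last 250. The first stretch ends short of the COL4A2 RefSeq start, at position 110307284, so it is not placed as these windows are.

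Collagen transcripts made up a larger part of the UMIs in mesenchymal cells than in the other classes of the same library. The median cell gave 0.974%, 0.367% and 0.477% of its UMIs to the 42 genes in mesenchymal cells of D23, D32 and D44. In neural cells the medians were 0.282% and 0.180% in D23 and D32, and in melanocytes 0.0992%, 0.0506% and 0.0444%. The neural cells of D23 were the most uneven, with 0.0265% at the 10th percentile and 0.578% at the 90th. With each cell thinned to 5000 UMIs, the median number of collagen genes detected per cell was 11, 8 and 8 in mesenchymal cells, 6 and 5 in neural cells, and 3, 2 and 2 in melanocytes. Without thinning these medians were 14, 15 and 12 in mesenchymal cells, 10 and 12 in neural cells, and 7, 8 and 8 in melanocytes. Fewer transcripts of a gene per cell and more RNA of other genes cannot be told apart in CPM.

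Fibrillar genes took the largest share of collagen UMIs in every sum except mesenchymal cells of D44. The fibrillar share was 76.0%, 64.0% and 38.5% in mesenchymal cells of D23, D32 and D44, 77.0% and 67.0% in neural cells, and 59.8%, 57.4% and 42.4% in melanocytes. Microfibrillar genes took 49.4% in mesenchymal cells of D44, which rests on 15 cells. Basement membrane genes held 30.7% of collagen UMIs in melanocytes of D44, against 15.9% in D32 and 14.4% in D23.

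**Figure D1:**
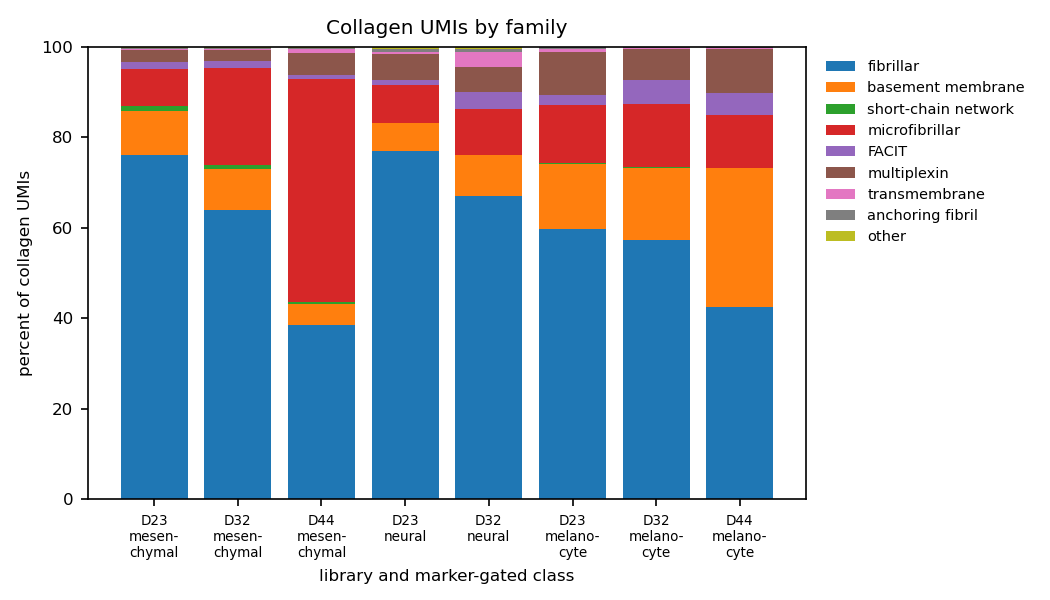
Percent of collagen UMIs (vertical axis, from 0 to 100) taken by each family in the 8 sums of cells by library and class. Fibrillar genes fill 76.0% of the bar in mesenchymal cells of D23 and 42.4% in melanocytes of D44.

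**Figure D2:**
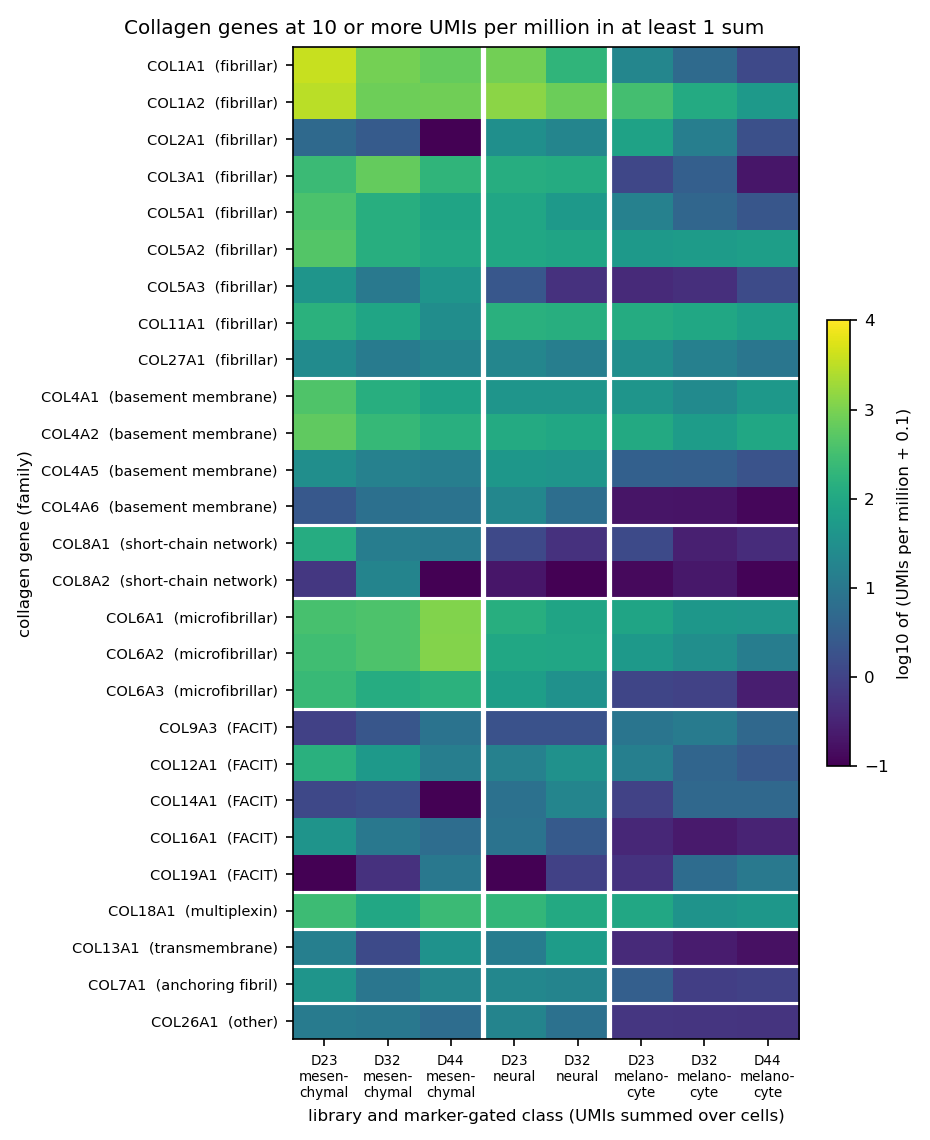
Level of the 27 collagen genes that reached 10 CPM in at least 1 sum, as log10 of CPM plus 0.1 (colour), by gene and family (rows) and by library and class (columns). Levels of COL1A1, COL3A1, COL6A3 and COL13A1 are low in all 3 melanocyte columns, while COL11A1 and COL27A1 are vary less, from 27.8 to 156 CPM and from 9.09 to 28.8 CPM.

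Classes were compared on UMIs summed over the cells of a class in a library, with libraries as the replicates (3 for mesenchymal cells and melanocytes, 2 for neural cells). Log2 fold changes with their standard error (SE) and adjusted p-values come from edgeR's quasi-likelihood test with the library as a block, adjusted by Benjamini-Hochberg over 15075 genes. Of the 42 members, 31 passed the filter on low counts. Because a gene can pass that filter through 1 class alone, counts over these 31 do not describe the whole family. Mesenchymal cells of D44 are 15 cells, and leaving out D44 is given where it ends a call. Leaving out D23 or D32 leaves 1 neural sum, so no p-value from those fits is given for comparisons with neural cells.

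Mesenchymal cells had more collagen RNA than melanocytes for most genes tested. 22 of 31 members were higher and 1 was lower at an adjusted p under 0.05, against 9.87% of all genes tested that were higher and 9.56% that were lower. The median log2 difference was 3.24 over the 31 members and -0.09 over all genes. By family, 6 of 9 fibrillar genes tested were higher and 1 lower, as were 4 of 4 basement membrane, 3 of 3 microfibrillar, 3 of 7 FACIT and 2 of 2 multiplexin genes, with no member lower in these families. The summed level of 4 smooth muscle and pericyte markers was 89.5 to 1681 CPM in mesenchymal cells, 541 to 589.8 CPM in neural cells and 8.67 to 13.8 CPM in melanocytes. TAGLN made up most of it in mesenchymal cells, and ACTA2 was also higher there than in melanocytes of each library. RGS5 was higher in D23 and D32 and at 0 in mesenchymal cells of D44, and MYH11, a defining smooth muscle gene, went the other way, with 1.40, 0.104 and 0 CPM in mesenchymal cells and 2.48, 0.206 and 0.174 CPM in melanocytes. The part of these cells in the collagen result was not tested.

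In neural over melanocyte cells 16 of 31 members were higher and 1 was lower, against 12.2% and 9.21% of all genes, with a median log2 difference of 1.71 over the members and -0.09 over all genes. Counts by family were 4 of 9 fibrillar, 2 of 4 basement membrane, 1 of 3 microfibrillar, 4 of 7 FACIT and 2 of 2 multiplexin genes higher, and 1 FACIT gene lower. Both comparisons share the melanocyte sums.

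Between mesenchymal and neural cells 6 of 31 members were higher and 3 lower, against 1.74% and 2.65% of all genes. COL1A1, COL5A1, COL5A3, COL6A1, COL6A3 and COL8A1 were higher in mesenchymal cells, and COL2A1, COL14A1 and COL22A1 were lower. COL22A1, at most 5.89 CPM in any sum, had 0, 1 and 0 UMIs in mesenchymal cells of D23, D32 and D44. In neural cells of D23 and D32 it had 26 and 14. These counts depended on the settings: DESeq2 gave 12 higher and 3 lower, and edgeR gave 9 and 1 without D44. With edgeR they were 1 and 0 with 10% free RNA taken off each sum, and 0 and 0 without the library term. Shares of all genes called under these settings are not given, so the counts do not set collagens apart from other genes. Scaling by total UMIs ended the calls of COL6A1 (adjusted p = 0.0705, edgeR) and COL6A3 (0.0713). The difference of COL6A2 (2.61 ± 0.74) did not pass in the main fit (0.103, edgeR). It passed with DESeq2 (0.0109), and in edgeR without D44 (0.0381), with the stricter gate (0.0321) and after thinning (0.015).

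**Figure D3:**
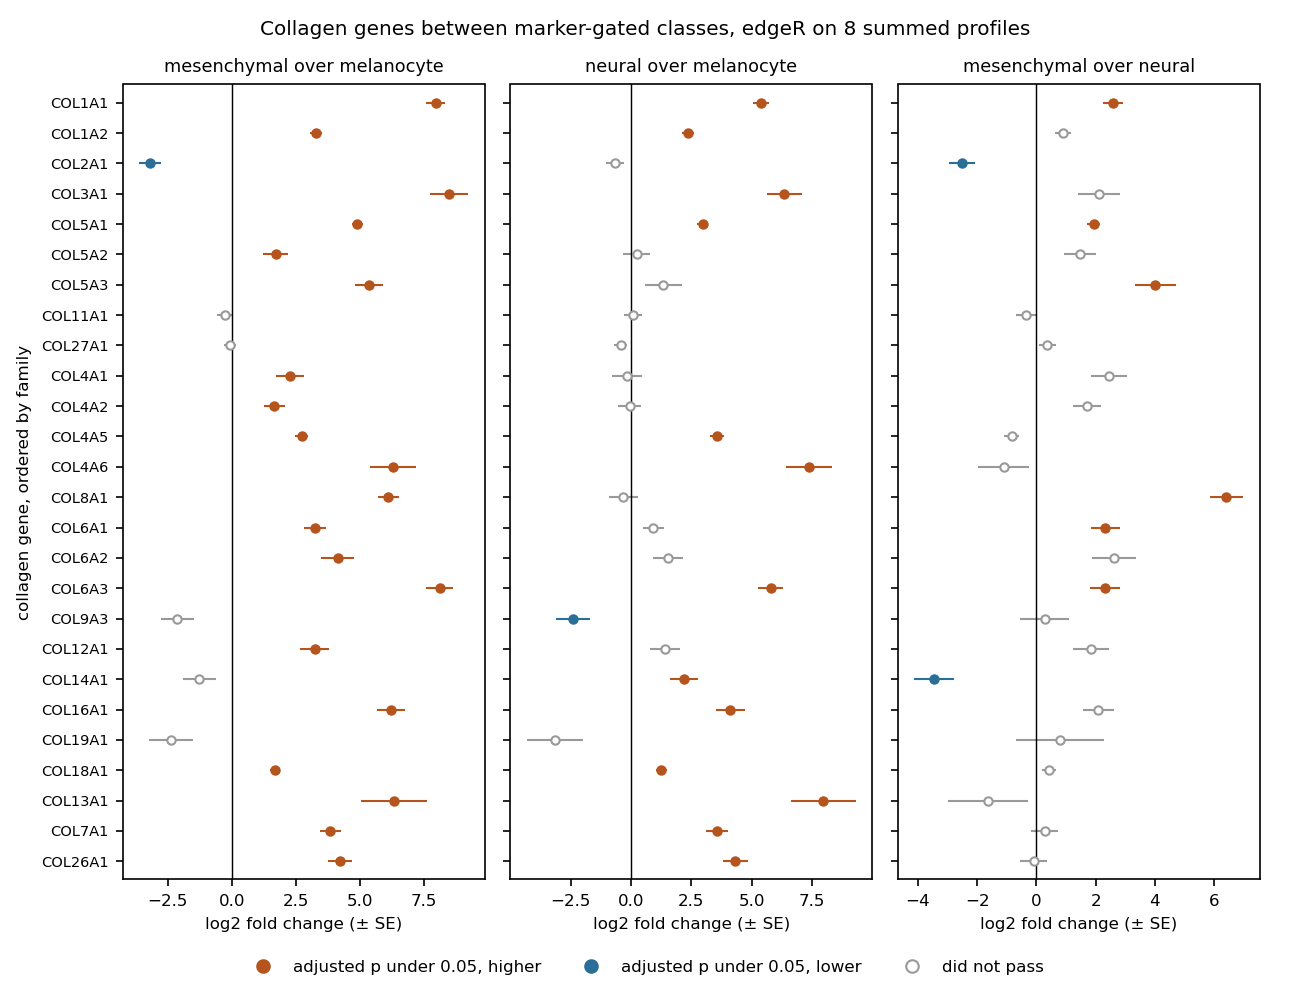
Log2 fold change with its SE (horizontal axes) for the 26 tested genes among those at 10 CPM or more, in mesenchymal over melanocyte, neural over melanocyte and mesenchymal over neural sums. Filled points passed an adjusted p of 0.05. COL1A1, COL3A1 and COL6A3 lie at 7.94, 8.47 and 8.10 in the first panel.

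Both type I chains were higher in mesenchymal and neural cells than in melanocytes. COL1A1 (chromosome 17, 50184101 to 50201632, hg38), which supplies 2 of the 3 type I chains, had 3846, 895 and 656 CPM in the mesenchymal sums, given in order of day, 847 and 188 CPM in neural cells of D23 and D32, and 19.2, 5.25 and 1.19 CPM in melanocytes. Classes did not overlap within any library, and each class was highest in D23. The log2 fold change was 7.94 ± 0.36 (SE) for mesenchymal over melanocyte cells (adjusted p = 6.1e-05, edgeR), 5.36 ± 0.33 for neural over melanocyte cells (0.00014) and 2.58 ± 0.34 for mesenchymal over neural cells (0.012). That last call was lost with 10% free RNA taken off (1.87 ± 1.35, adjusted p = 0.517, edgeR) and without the library term (0.609). COL1A2 (chromosome 7, 94394895 to 94431227), the partner chain, had 3090, 795 and 815 CPM in mesenchymal cells, 1363 and 755 CPM in neural cells, and 322, 115 and 51.5 CPM in melanocytes. It was higher in mesenchymal than melanocyte cells (3.27 ± 0.24, adjusted p = 0.00023, edgeR) and in neural than melanocyte cells (2.37 ± 0.25, 0.00096), and its difference between mesenchymal and neural cells (0.90 ± 0.26) did not pass (0.11).

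The 2 type I chains stood in different proportions in the 3 classes. There were 0.803, 0.889 and 1.24 UMIs of COL1A2 per UMI of COL1A1 in mesenchymal cells of D23, D32 and D44, 1.61 and 4.01 in neural cells, and 16.7, 21.9 and 43.4 in melanocytes. The melanocyte ratios lay above all others in every library, with 95% counting intervals that do not meet. A ratio of UMIs is read here only between classes, since capture can differ between genes. After thinning to 5000 UMIs, 68.7%, 37.8% and 20.9% of melanocytes of D23, D32 and D44 had COL1A2 without COL1A1, and 3.35%, 0.813% and 0.0521% had both. In mesenchymal cells 98.9%, 78.6% and 66.7% had both.

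Levels in the class where a gene is low were set against its level in the other class of the same library. PMEL in mesenchymal cells stood at 2.38%, 1.06% and 2.69% of its melanocyte level in D23, D32 and D44, and MLANA at 1.07%, 0.877% and 0.836%. COL1A1 in melanocytes stood at 0.500%, 0.587% and 0.181% of its mesenchymal level, COL3A1 at 0.409%, 0.494% and 0.054%, and COL6A3 at 0.426%, 0.707% and 0.101%. For COL1A2 these values were 10.4%, 14.5% and 6.32%, for COL5A1 3.94%, 3.15% and 2.49%, and for COL5A2 11.1%, 40.0% and 62.2%. COL6A1 stood at 23.9%, 11.3% and 3.65%, and COL6A2 at 17.0%, 7.41% and 1.09%. The D44 values of COL5A1 and COL6A2 lie within the range of PMEL. Values of COL1A1, COL3A1 and COL6A3 lie below the ranges of PMEL and MLANA in every library. Mesenchymal cells are few, at 7.53%, 4.42% and 0.258% of kept cells, so the percentages of the 2 directions are not on 1 scale. The part of free RNA in the melanocyte levels of these collagens was not tested.

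**Figure D4:**
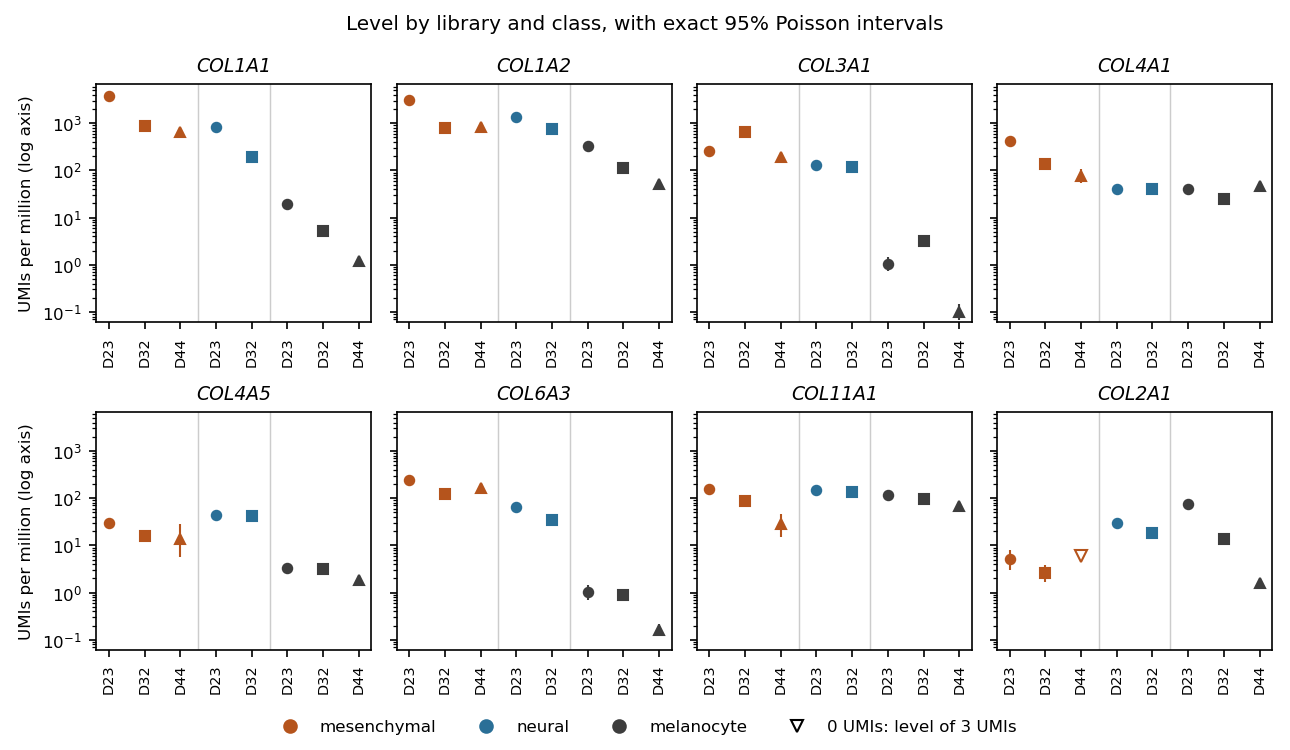
CPM (log axis) of 8 collagen genes in each library and class, with exact 95% Poisson intervals that cover counting error only (mostly smaller than the symbols). The open triangle marks the level of 3 UMIs where COL2A1 had none. COL1A1 is lower in melanocytes than in both other classes, COL11A1 stays between 27.8 and 156 CPM, and COL2A1 is highest in melanocytes of D23 at 74.8 CPM.

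COL3A1, the type III chain found with type I in distensible tissues, had 257, 644 and 189 CPM in mesenchymal cells, 130 and 120 CPM in neural cells, and 1.05, 3.18 and 0.102 CPM in melanocytes. Among mesenchymal sums it was highest in D32, where COL1A1 and COL1A2 were highest in D23. The log2 fold change was 8.47 ± 0.75 for mesenchymal over melanocyte cells (adjusted p = 0.00045, edgeR) and 6.34 ± 0.72 for neural over melanocyte cells (0.0012), and 2.13 ± 0.71 for mesenchymal over neural cells did not pass (0.15). That last difference passed with DESeq2 (0.0437), and in edgeR with the stricter gate (0.0339) and thinning (0.0166). With 1 neural sum left, it was 3.37 without D23 and 1.62 without D32.

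Type V chains, which start fibrils, split. COL5A1 had 388, 137 and 83.5 CPM in mesenchymal cells, 91.4 and 51.7 CPM in neural cells, and 15.3, 4.32 and 2.08 CPM in melanocytes, and passed in all 3 comparisons (log2 4.89 ± 0.21, 2.96 ± 0.22 and 1.93 ± 0.22). COL5A2 had 456, 136 and 101 CPM in mesenchymal cells, 94.3 and 82.5 CPM in neural cells, and 50.8, 54.4 and 63.1 CPM in melanocytes. It differed between mesenchymal and melanocyte cells by 1.71 ± 0.49 (adjusted p = 0.046, edgeR), a call that was lost without called doublets (0.052) and with free RNA taken off (0.067), and between neural and melanocyte cells by 0.24 ± 0.55 (0.80). The ratio of COL5A2 to COL5A1 was 1.17, 0.992 and 1.21 in mesenchymal cells, 1.03 and 1.59 in neural cells, and 3.32, 12.6 and 30.3 in melanocytes. COL5A3, a further type V chain, had 39.7, 10.6 and 39.8 CPM in mesenchymal cells, 2.13 and 0.421 CPM in neural cells, and 0.286, 0.376 and 1.29 CPM in melanocytes. It was higher in mesenchymal than melanocyte cells (5.35 ± 0.55, adjusted p = 0.00087, edgeR) and than neural cells (4.02 ± 0.70, 0.027, and 0.054 without D44).

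Fibrillar genes known from cartilage did not follow type I. COL11A1, a type XI chain, had 156, 86.4 and 27.8 CPM in mesenchymal cells, 151 and 137 CPM in neural cells, and 118, 94.6 and 67.5 CPM in melanocytes. Its classes overlapped, and no comparison passed (mesenchymal over melanocyte cells -0.26 ± 0.32, adjusted p = 0.65, edgeR). COL2A1, the type II chain, had 5.03, 2.59 and 0 CPM in mesenchymal cells, where 3 UMIs would be 5.97 CPM in D44, 30.3 and 18.5 CPM in neural cells, and 74.8, 13.6 and 1.56 CPM in melanocytes. It was lower in mesenchymal than melanocyte cells (-3.18 ± 0.42, adjusted p = 0.0025, edgeR; 0.16 without the library term) and than neural cells (-2.52 ± 0.44, 0.026; 0.062 without D44). After thinning, COL2A1 was found in 1.09% of mesenchymal cells of D23 and 27.4% of melanocytes of D23, at median depths of 11948.5 and 12789 UMIs, and without thinning in 4.90% of mesenchymal cells and 49.0% of melanocytes. Of the 6 cartilage markers, ACAN was at 0 in all mesenchymal sums, and the list summed to 17.9 to 36.0 CPM there, 21.5 to 44.8 CPM in neural cells and 3.06 to 5.84 CPM in melanocytes. COL27A1, a further fibrillar chain, had 25.7, 11.7 and 17.9 CPM in mesenchymal cells, 19.3 and 13.9 CPM in neural cells, and 28.8, 15.2 and 9.09 CPM in melanocytes, with no comparison passing.

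COL4A1 and COL4A2 were both higher in mesenchymal cells than in melanocytes. COL4A1 had 424, 138 and 77.5 CPM in mesenchymal cells, 39.7 and 40.8 CPM in neural cells, and 40.5, 24.5 and 46.7 CPM in melanocytes. COL4A2, with 126 bases between its RefSeq start and that of COL4A1, had 602, 228 and 141 CPM in mesenchymal cells, 113 and 97.2 CPM in neural cells, and 109, 57.9 and 95.3 CPM in melanocytes. The log2 differences over melanocytes passed for both (2.27 ± 0.55, adjusted p = 0.026, and 1.66 ± 0.41, 0.029, edgeR). Neither passed between neural and melanocyte cells (-0.18 ± 0.62 and -0.05 ± 0.47) or in the main fit between mesenchymal and neural cells (adjusted p = 0.075 and 0.091). In the latter comparison DESeq2 called both (0.00655 and 0.0204), as did edgeR without D44 (0.0349 and 0.0341). With 1 neural sum left, its log2 differences were 1.56 and 1.08 without D23, and 2.94 and 2.03 without D32. The ratio of COL4A2 to COL4A1 lay between 1.42 and 2.84 over the 8 sums, and in D23 and D32 it was lower in mesenchymal cells (1.42 and 1.65) than in neural cells (2.84 and 2.38) and melanocytes (2.68 and 2.36), with 95% counting intervals apart. Without the library term the COL4A2 call over melanocytes was lost (0.0527).

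COL4A5 and COL4A6 were both lowest in melanocytes. COL4A5, mutated in Alport syndrome, had 29.6, 15.6 and 13.9 CPM in mesenchymal cells, 44.4 and 41.2 CPM in neural cells, and 3.25, 3.13 and 1.81 CPM in melanocytes. COL4A6 had 2.24, 7.05 and 7.95 CPM in mesenchymal cells, the last from 4 UMIs, 20.5 and 6.31 CPM in neural cells, and 0.0955, 0.0850 and 0.0227 CPM in melanocytes. Melanocytes were below both other classes in every library for both genes. Log2 fold changes were 2.73 ± 0.26 and 6.27 ± 0.90 for mesenchymal over melanocyte cells (adjusted p = 0.00062 and 0.0033, edgeR), and 3.56 ± 0.28 and 7.37 ± 0.94 for neural over melanocyte cells (0.0003 and 0.0020). Neither gene passed between mesenchymal and neural cells (-0.84 ± 0.26 and -1.10 ± 0.86). The ratio of COL4A5 to COL4A6 ran from 1.75 to 80.0, with few COL4A6 UMIs in most sums.

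Of the short-chain network collagens, which form hexagonal lattices, 1 was tested. COL8A1 had 124, 13.2 and 11.9 CPM in mesenchymal cells, 1.16 and 0.421 CPM in neural cells, and 1.21, 0.179 and 0.340 CPM in melanocytes (6.1 ± 0.40 over melanocytes, adjusted p = 0.00019, and 6.42 ± 0.57 over neural cells, 0.0038, edgeR). Its call over neural cells was lost with free RNA taken off (0.0673) and without the library term (0.1). COL8A2 had 174 of its 246 UMIs in mesenchymal cells of D32 (18.0 CPM), with 2 and 0 UMIs in those of D23 and D44, 1 and 0 in neural cells, 1, 24 and 3 in melanocytes and the rest in unassigned cells, and it was not tested because it did not pass the filter on low counts.

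All 3 type VI chains at 10 CPM or more were higher in mesenchymal cells than in melanocytes. COL6A1 had 353, 394 and 1135 CPM in mesenchymal cells, 137 and 81.6 CPM in neural cells, and 84.3, 44.7 and 41.4 CPM in melanocytes. COL6A2, which lies next to it on chromosome 21, had 289, 398 and 1183 CPM in mesenchymal cells, 94.1 and 90.4 CPM in neural cells, and 49.1, 29.5 and 12.9 CPM in melanocytes. COL6A3 had 239, 123 and 161 CPM in mesenchymal cells, 63.5 and 34.5 CPM in neural cells, and 1.02, 0.868 and 0.163 CPM in melanocytes. In that comparison the log2 differences were 3.25 ± 0.43, 4.13 ± 0.65 and 8.10 ± 0.54 (adjusted p = 0.0024, 0.0051 and 0.00019, edgeR). Between neural and melanocyte cells COL6A3 passed (5.78 ± 0.52, 0.00047), and COL6A1 (0.91 ± 0.43) and COL6A2 (1.51 ± 0.62) did not. COL6A2 passed there without D44 (0.0463, edgeR) and with the stricter gate (0.0354). With 1 neural sum left, the log2 difference of COL6A2 was 1.939 without D23 and 1.545 without D32. That of COL6A1 was 1.007 and 1.133. COL6A1 per UMI of COL6A3 was 1.48, 3.21 and 7.05 in mesenchymal cells, 2.15 and 2.37 in neural cells, and 82.8, 51.4 and 255 in melanocytes, whereas COL6A1 per UMI of COL6A2 stayed between 0.902 and 3.22.

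**Figure D5:**
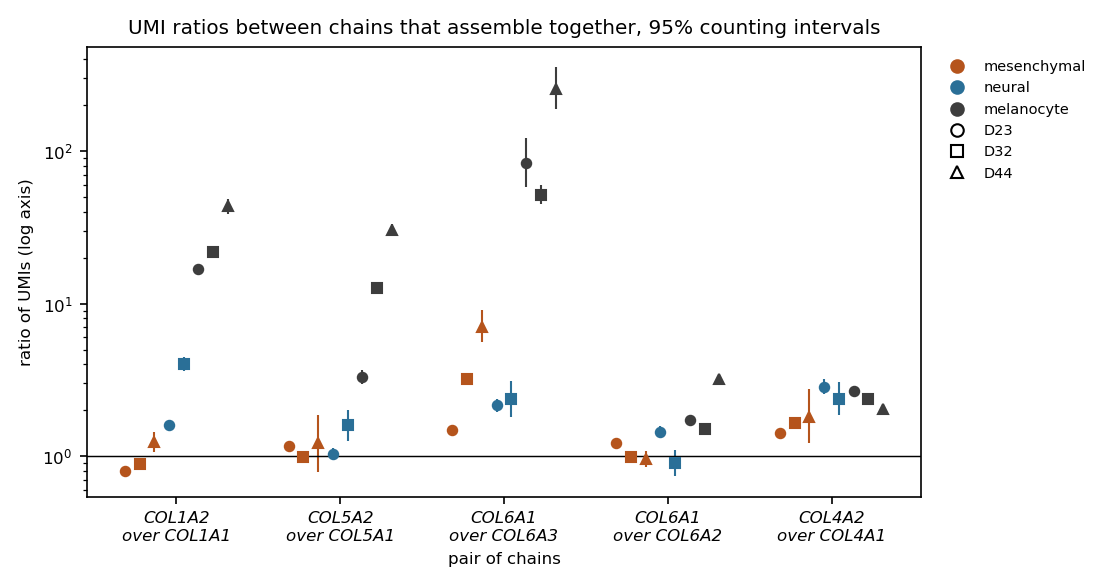
Ratio of UMIs (log axis) between 5 pairs of chains that assemble together, by class (colour) and library (symbol), with 95% counting intervals. Melanocytes stand apart for COL1A2 over COL1A1 (16.7 to 43.4), COL5A2 over COL5A1 (3.32 to 30.3) and COL6A1 over COL6A3 (51.4 to 255), and the COL4A2 over COL4A1 ratios of all classes lie between 1.42 and 2.84.

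FACIT genes had no common direction. COL12A1, which coats type I fibrils, had 148, 50.1 and 13.9 CPM in mesenchymal cells, 15.6 and 34.1 CPM in neural cells, and 14.3, 4.27 and 2.37 CPM in melanocytes (3.24 ± 0.56 for mesenchymal over melanocyte cells, adjusted p = 0.0073, edgeR). COL16A1 had 38.8, 10.1 and 5.97 CPM in mesenchymal cells, 7.96 and 2.52 CPM in neural cells, and 0.255, 0.130 and 0.208 CPM in melanocytes (6.19 ± 0.55, 0.00045). COL14A1 was highest in neural cells, with 1.12, 1.45 and 0 CPM in mesenchymal cells, 7.18 and 18.5 CPM in neural cells, and 0.859, 4.69 and 4.86 CPM in melanocytes. It was higher in neural than melanocyte cells (2.19 ± 0.59, adjusted p = 0.036, edgeR) and lower in mesenchymal than neural cells (-3.46 ± 0.68, 0.036), and both calls were lost in cells thinned to 5000 UMIs (0.0547 and 0.0843). The call over melanocytes was also lost with free RNA taken off (0.0527), and the mesenchymal one without D44 (0.0633). With 1 neural sum left, the difference over melanocytes was 1.70 without D23 and 2.68 without D32. COL9A3 and COL19A1 were at their highest in melanocytes. COL9A3, a cartilage collagen chain, had 0.838, 2.07 and 7.95 CPM in mesenchymal cells, 1.75 and 1.68 CPM in neural cells, and 8.66, 12.1 and 4.77 CPM in melanocytes (-2.39 ± 0.69 for neural over melanocyte cells, adjusted p = 0.046, edgeR, and 0.0697 with DESeq2). Without D32, which leaves 1 neural sum, that difference was -1.96. The mesenchymal over melanocyte difference of COL9A3 (-2.12 ± 0.65) did not pass in the main fit (0.0603, edgeR). It passed without D44 (0.0154), with the stricter gate (0.0138), after thinning (0.039) and with no filter on low counts (8.76e-05). COL19A1 had 0, 0.415 and 9.94 CPM in mesenchymal cells, the last from 5 UMIs, 0 and 0.841 CPM in neural cells, and 0.446, 5.83 and 10.4 CPM in melanocytes, and no comparison passed. It was called lower in mesenchymal than melanocyte cells without D23 (0.0137, edgeR), with the stricter gate (0.024) and with no filter on low counts (0.00113), and in neural than melanocyte cells with no filter (0.00217).

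Of the remaining collagens, COL18A1, the basement membrane proteoglycan that yields endostatin, had 273, 100 and 251 CPM in mesenchymal cells, 205 and 108 CPM in neural cells, and 100, 36.8 and 44.7 CPM in melanocytes (1.69 ± 0.20 and 1.26 ± 0.22 over melanocytes, adjusted p = 0.0014 and 0.0068, edgeR). COL13A1, a transmembrane collagen, had 14.2, 1.24 and 35.8 CPM in mesenchymal cells, 12.4 and 58.9 CPM in neural cells, and 0.286, 0.143 and 0.0681 CPM in melanocytes (6.32 ± 1.29, 0.014, and 7.96 ± 1.34, 0.0060). The mesenchymal call for COL13A1 was lost without D44 (0.076). COL7A1, the anchoring fibril chain that fastens the epidermal basement membrane, had 40.2, 9.23 and 19.9 CPM in mesenchymal cells, 20.3 and 17.7 CPM in neural cells, and 3.15, 0.730 and 0.820 CPM in melanocytes (3.84 ± 0.42 and 3.56 ± 0.45, 0.0011 and 0.0019). COL26A1 had 12.0, 10.2 and 5.97 CPM in mesenchymal cells, 18.1 and 7.15 CPM in neural cells, and 0.509, 0.488 and 0.457 CPM in melanocytes (4.22 ± 0.47 and 4.32 ± 0.50, 0.0011 and 0.0014). The other 15 members stayed under 10 CPM in every sum, with highest values from 0.0318 to 9.68 CPM. Named after their values were seen, COL15A1 and COL9A2 were highest in neural cells of D32 at 8.41 and 9.68 CPM, and COL24A1 in melanocytes of D32 at 2.20 CPM.

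Levels within a class were also set side by side between days, with 1 library per day and therefore no test. A gene counts as higher or lower where CPM differed at least 2-fold and the exact 95% Poisson intervals did not overlap, which covers counting error only. In melanocytes of D32 over D23, 6 of 41 members were higher and 11 lower, against 3.22% and 12.9% of all genes with a UMI. For the 27 members at 10 CPM or more the counts were 3 and 8, against 4.85% and 9.16% of genes at that level. In melanocytes of D44 over D32, 1 of 41 was higher and 14 lower (1.58% and 3.86% of all genes), and 1 and 10 of the 27 (1.3% and 3.65% of genes at that level). COL1A1, COL1A2, COL2A1 and COL5A1 were lower in both steps, with COL1A2 2.80-fold lower in D32 than in D23 and 2.23-fold lower in D44 than in D32. COL4A1, COL4A2, COL5A2, COL11A1 and COL27A1 did not meet the rule in either step. COL19A1 was 13.1-fold higher in D32 than in D23, and COL5A3 was 3.44-fold higher in D44 than in D32.

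In mesenchymal cells of D32 over D23, 3 of 39 members were higher and 14 lower, all among the 27, against 6.28% and 9.15% of all genes and 10.1% and 12.7% of genes at 10 CPM or more. COL3A1 (2.51-fold), COL4A6 (3.16-fold) and COL8A2 (174 UMIs, against 2 in D23) were higher, and COL1A1 (4.30-fold), COL1A2 (3.88-fold), COL8A1 (9.42-fold), COL5A1 and COL4A1 were among those lower. In mesenchymal cells of D44 over D32, 6 of 39 were higher and 4 lower (4.1% and 2.94% of all genes, 6.54% and 5.33% at 10 CPM or more), with COL6A1 2.88-fold and COL6A2 2.97-fold higher and COL3A1 3.41-fold lower. In neural cells of D32 over D23, 6 of 40 were higher and 4 lower (5.54% and 5.64% of all genes), and 3 and 4 of the 27 (10.1% and 9.12% at that level). COL13A1 was 4.74-fold higher, and COL1A1 was 4.51-fold lower. Within the D23 neural cells, the 447 with a UMI of DCX or POU3F2 had 567 CPM of COL1A1 and the 374 without had 1073 CPM, at median depths of 9110 and 14547 UMIs.

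Genes that fold, trim and cross-link collagen were read from a list of 35, all tested. In mesenchymal over melanocyte cells 19 were higher and 3 lower, in neural over melanocyte cells 4 and 2, and in mesenchymal over neural cells 10 and 0 (median log2 differences of 0.68, 0.15 and 0.71). Over all genes tested the shares were 9.87% and 9.56%, 12.2% and 9.21%, and 1.74% and 2.65%, so the 4 of 35 in neural over melanocyte cells lie near the share of all genes. DESeq2 gave 12 higher in neural over melanocyte cells, and edgeR gave 0 higher in mesenchymal over neural cells without the library term or with free RNA taken off. Shares of all genes under these settings are not given. No gene of this list was called lower in mesenchymal than neural cells by edgeR, where 2 lay under an unadjusted p of 0.05, and DESeq2 called 1. PCOLCE, the enhancer of procollagen C-proteinase, had 161, 423 and 237 CPM in mesenchymal cells, 35.0 and 27.8 CPM in neural cells, and 15.1, 6.96 and 3.84 CPM in melanocytes (5.08 ± 0.51 over melanocytes, adjusted p = 0.00082, and 3.52 ± 0.58 over neural cells, 0.023, edgeR). TLL1, a procollagen C-proteinase, had 0.279, 5.19 and 1.99 CPM in mesenchymal cells, from 1, 50 and 1 UMIs, 0.097 and 0.841 CPM in neural cells, and 0.0318, 0.0537 and 0 CPM in melanocytes (6.44 ± 1.16 for mesenchymal over melanocyte cells, 0.0085). ADAMTS14, a procollagen N-proteinase, had 1.12, 0.726 and 3.98 CPM in mesenchymal cells, 0.970 and 3.79 CPM in neural cells, and 0.0318, 0.161 and 0.136 CPM in melanocytes (4.35 ± 0.87 for neural over melanocyte cells, 0.012).

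Of 12 collagen receptor genes, 9 were tested, with 4 higher and 2 lower in mesenchymal over melanocyte cells, 3 and 1 in neural over melanocyte cells, and 1 and 2 in mesenchymal over neural cells, beside the same shares of all genes (9.87% and 9.56%, 12.2% and 9.21%, 1.74% and 2.65%). The 1 of 9 called lower in neural over melanocyte cells lies near the share of all genes, 9.21%. With 9 genes tested, the 1 and 2 calls in mesenchymal over neural cells are too few to set against 1.74% and 2.65%. DDR2, which binds fibrillar collagen, had 142, 51.7 and 41.8 CPM in mesenchymal cells, 50.9 and 0.421 CPM in neural cells, and 8.28, 0.815 and 0.764 CPM in melanocytes (5.28 ± 0.65 for mesenchymal over melanocyte cells, adjusted p = 0.0018, edgeR). DDR1, the related receptor, had 2.51, 2.49 and 9.94 CPM in mesenchymal cells, 43.6 and 44.2 CPM in neural cells, and 4.14, 7.97 and 8.30 CPM in melanocytes (2.85 ± 0.37 for neural over melanocyte cells, 0.0020, and -3.88 ± 0.42 for mesenchymal over neural cells, 0.0076). ADGRG1, a receptor that binds type III collagen in the brain, had 3.91, 1.56 and 7.95 CPM in mesenchymal cells, 41.9 and 35.8 CPM in neural cells, and 106, 116 and 94.0 CPM in melanocytes. It was lower in mesenchymal than melanocyte cells by -5.27 ± 0.40 (adjusted p = 0.00027, edgeR), and in neural than melanocyte cells by -1.61 ± 0.35 (0.016). The collagen-binding integrin chain ITGA11 had 46.1, 25.4 and 47.7 CPM in mesenchymal cells, 7.57 and 13.5 CPM in neural cells, and 0.7, 0.251 and 0.0945 CPM in melanocytes (7.05 ± 0.62 and 4.84 ± 0.65 over melanocytes, 0.00045 and 0.0023). ITGA2, a further collagen-binding chain, had 0.279, 5.08 and 13.9 CPM in mesenchymal cells, 14.8 and 15.6 CPM in neural cells, and 0.509, 2.60 and 3.28 CPM in melanocytes (3.80 ± 0.74 for neural over melanocyte cells, 0.011).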

How the data were processed

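The authors deposited 1 matrix of UMI counts per library, as whole numbers per gene and barcode and not normalized, and the submitters' processing notes name Cell Ranger 6.1.2 and hg38. The annotation release is not given in the sources used here. Cells were kept by the study's filter, with 1000 to 7000 detected genes and 500 to 50000 UMIs in D23, 3000 to 9000 detected genes and 500 to 100000 UMIs in both later libraries (limits themselves left out), and at most 10% mitochondrial UMIs. This left 49850363, 241341185 and 266709913 UMIs. Members and lists were chosen with earlier results of these data known.

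A class score was the mean of ln(1 + UMIs per 10000) over its markers. Melanocytes scored at least 0.7, with both other scores under 0.3. Mesenchymal cells scored at least 0.2 and above their neural score, and neural cells at least 0.5 with a mesenchymal score under 0.3, both with a melanocyte score under 0.5 (and, in mesenchymal cells, a neural score under 0.5). These limits were set from marker scores alone. The gate moves with free RNA and depth. Doublets were called with Scrublet in Scanpy 1.11.5 (0.8% per 1000 barcodes), and kept in the main results.

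Counts were summed per library and class of at least 10 cells, giving 8 sums, and compared with edgeR 4.0.16 on R 4.3.3 (TMM, filterByExpr, quasi-likelihood test, library as a block since classes of a library share droplets, 3 residual degrees of freedom, adjusted p threshold 0.05). A p-value measures recurrence over 3 libraries from a pair of inductions. In comparisons with neural cells it covers only 2 neural sums, D23 and D32, 1 from each induction. Among 200 of 15075 genes changed in simulated counts, 89% were recovered at a log2 change of 2 and 21% at 1 for mesenchymal over melanocyte cells (80% and 11% for neural over melanocyte, 68% and 8% for mesenchymal over neural). Intervals are exact Poisson (CPM) or counting intervals of a ratio, at 95%. A count of 0 allows 3 UMIs. Members with at least 10 CPM in 1 sum are given in every sum. Of the other 15, at most 5 are named. Of the biosynthesis and receptor lists, the 8 genes with the largest log2 difference among those called are named, at most 4 per comparison. Alternatives were DESeq2 1.42.0, scaling by total UMIs, no filter on low counts, no library term, each library left out, a stricter gate, doublets left out, counts thinned to 5000 UMIs per cell and 10% of each sum taken off as its library's mean profile. Positions are from GENCODE (hg38).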

Additional observations from a re-analysis of the deposited data

Results flagged for a closer look

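In a pair of collagen genes a class difference ran one way in 1 library and the other way in another, with the exact 95% Poisson intervals of the classes apart in each direction, and in neither case was the difference between libraries tested. COL11A1 differed between mesenchymal cells and melanocytes by a log2 ratio of CPM of 0.41 in D23, and of -0.13 and -1.28 in the D32 and D44 libraries. The last value rests on 14 UMIs in 15 mesenchymal cells. COL7A1 differed between mesenchymal and neural cells by 0.99 in D23 and -0.94 in D32. Without the demand on intervals, 5 of 27 genes changed sign between libraries in mesenchymal over melanocyte cells, 4 in neural over melanocyte cells and 8 in mesenchymal over neural cells. Among them COL13A1 had 14.2 CPM in mesenchymal and 12.4 CPM in neural cells of D23, and 1.24 and 58.9 CPM in those of D32, and COL4A6 had 2.24 and 20.5 CPM in D23 and 7.05 and 6.31 CPM in D32. COL9A3 had 0.838, 2.07 and 7.95 CPM in mesenchymal cells and 8.66, 12.1 and 4.77 CPM in melanocytes, and COL27A1 had 25.7, 11.7 and 17.9 CPM in mesenchymal cells and 28.8, 15.2 and 9.09 CPM in melanocytes.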

How the results depend on the processing

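No log2 difference of a collagen gene at 10 CPM or more changed its sign where the main fit or the alternative called it. Changes of sign in differences that neither called were not counted. For mesenchymal over melanocyte cells, 19 to 25 collagen genes were called higher under the 11 alternatives, and for neural over melanocyte cells 12 to 22. In mesenchymal over melanocyte cells, collagen genes called lower numbered 4 with no filter, 0 with no library term and 3 with the stricter gate. They numbered 2 after thinning and 1 to 3 with a library left out. For neural over melanocyte cells the 1 gene called lower became 0 with DESeq2, total scaling, no library term, doublets left out, thinning and free RNA taken off, and 4 with no filter. For mesenchymal over neural cells, collagen genes higher numbered 12 with DESeq2, 16 with no filter, 0 with no library term, 11 after thinning, 1 with free RNA taken off and 9 to 13 with a library left out, and genes lower numbered 6 with no filter, 0 with no library term, 1 with the stricter gate, 1 after thinning, 0 with free RNA taken off and 1 to 5 with a library left out. Without the replicate block (the library term), edgeR made no mesenchymal over neural call of any collagen, and the calls of COL2A1 (adjusted p = 0.155), COL4A2 (0.0527) and COL18A1 (0.051) over melanocytes were lost in mesenchymal cells, as were those of COL1A2 (0.0584), COL18A1 (0.152), COL14A1 (0.233) and COL9A3 (0.0602) in neural cells. Biosynthesis genes lower in mesenchymal than melanocyte cells numbered 0 with no library term, 1 after thinning and 1 to 4 with a library left out. Those higher in neural than melanocyte cells numbered 12 with DESeq2, 8 with total scaling, 7 with no filter and 7 after thinning. Those higher in mesenchymal than neural cells numbered 17 with DESeq2, 0 with no library term, 3 with the stricter gate and 0 with free RNA taken off, and 1 was lower with DESeq2. Receptor genes higher in mesenchymal than melanocyte cells were 2 with no library term, and those lower 1 with total scaling, no library term or free RNA taken off. In neural over melanocyte cells 5 receptors were higher with no filter, and 2 lower with no filter, the stricter gate or thinning. In mesenchymal over neural cells 3 receptors were higher with DESeq2, 4 with no filter, 2 after thinning, and 0 with no library term, the stricter gate, doublets left out or free RNA taken off. Between days, melanocytes of D44 over D32 had 3 collagen genes higher with the stricter gate, 2 without doublets and 4 with free RNA taken off, which left 8 lower. After thinning 1 was lower in mesenchymal cells of D44 over D32, and 3 were higher and 2 lower in neural cells of D32 over D23. Shares of all genes called between classes under each alternative are not given. The counts therefore do not show whether these genes moved more than others. The cause of these changes was not tested. The stricter gate left 6 mesenchymal cells in D44, so that sum could not be made. Precision is limited by the 15 mesenchymal cells of D44 and the 98 neural cells of D32. Fits without D23 or D32 leave 1 neural sum. Their counts for comparisons with neural cells are not given singly. They enter the range of 12 to 22 above, and both mesenchymal over neural ranges with a library left out. Those ranges therefore rest in part on fits with 1 neural sum.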
